A study of Mus musculus with 119 samples.

Results

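The 10 genes Dpp4, Clec3b, Fbln1, Pdgfra, Pi16, Mfap4, Mfap5, Dpt, Ly6a and Gsn mark fibro-adipogenic progenitors and other fibroblasts of muscle, and were followed here through RNA-seq of sorted muscle stem cells. They are 10 of the 24421 gene symbols in each of 10 count tables. They were picked by name after higher levels of fibroblast markers had been seen in adult cells with low surface CD34, so their difference between the adult CD34Lo and CD34Hi gates is given as a description with no test. The question was whether the 10 genes climb together from library to library, as RNA of admixed fibroblasts would make them, or separately.

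The 80 libraries came from satellite cells, the stem cells of skeletal muscle, taken from resting, uninjured muscle and lysed straight after the sort without culture. The series describes 1 sort for all groups, in which cells bearing CD45, CD31 or Sca-1 were removed and cells with α7-integrin and CD34 were kept, but the title of the experiment 4 table calls its lowest gate CD34-negative. Experiment 1 held wild-type (WT) CD34Hi and CD34Lo cells of young and of geriatric mice (4 libraries each). Experiment 2 held WT young CD34Hi, young CD34Lo and adult CD34Lo cells (4 libraries each) and adult CD34Hi cells (3 libraries). The sample labels call the later age adult and the title of the count table calls it old. Experiment 3 held young WT CD34Hi (3) and CD34Lo (2) cells, and experiment 4 young Pax7-ROSAYFP CD34Hi, CD34Med and CD34Lo cells (4 each), a genotype with a yellow fluorescent reporter. The table of experiment 4 names its gates high, low and negative (columns H, L and N), and these were taken as CD34Hi, CD34Med and CD34Lo in that order, which the labels do not state. The other libraries were not parted by CD34 (CD34All) and came from FoxO1,3a,4KO mice and their FoxO1,3a,4WT controls, called KO and WT below. Experiment 5 held cells of mice 8 days old, of which 6 KO libraries were used. Its 4 WT columns for 3 labelled WT samples were not used. Experiment 6 held cells of mice 21 days old, with 4 KO and 3 WT libraries. Below, 8 days and 21 days are these ages. Young mice on the Pax7ROSAYFP background (experiment 7) gave 2 of each genotype, and young mice without it (experiment 8) gave 2 KO and 3 WT libraries. Old mice gave 2 of each genotype in experiment 9. By the table titles these cells were taken after tamoxifen injection, 4 days after it in experiments 7 and 9 and 30 days after it in experiment 8. Old mice also gave, at 22 months, 3 libraries of each genotype in experiment 10. The labels state neither the Cre driver of the knockout nor the ages of the young, adult, old and geriatric mice in most tables, nor whether the libraries of a group are separate animals.

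Fibro-adipogenic progenitors are the mesenchymal cells between muscle fibres. They carry the platelet-derived growth factor receptor PDGFRα and the surface antigen Sca-1, lay down collagens and elastic fibres after injury, and can turn into fibroblasts or fat cells. A subset around vessels and in the fascia is known for DPP4 and PI16, while the matrix proteins of the list are made by fibroblasts of many tissues. Satellite cells themselves express some matrix genes, so a gene of the list is not by itself a sign of a fibroblast.

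Library totals ran from 4.16 M to 8.91 M counts in experiment 2 and from 4.13 M to 78.09 M over all libraries. Levels are CPM, a gene's reads scaled to a fixed library size after TMM adjustment of the totals. The satellite cell genes Pax7, Myf5 and Myod1 had counts in all 80 libraries, with medians of 36, 253 and 1210 CPM. Ptprc, the gene of CD45, had a median of 0.0699 CPM and was at 0 in 37 libraries, and Pecam1, the gene of CD31, had a median of 7.53 CPM. In the 6 libraries labelled KO at 8 days Foxo1 ranged from 2.83 to 72.8 CPM and Foxo4 from 1.68 to 132 CPM. Both highest values belonged to replicate 3, which goes against its label. Foxo1 ran from 7.9 to 13.6 CPM in KO and from 90.8 to 99.2 CPM in WT at 21 days. The genotypes also stood apart in Foxo1 in young mice. Foxo3, also named in the knockout, was not lower in KO. It ran from 23.8 to 55.2 CPM in KO and from 22.3 to 30.5 CPM in WT at 21 days. At 22 months it ran from 32.1 to 37.6 CPM in KO and from 6.31 to 30.3 CPM in WT. In experiment 2 the libraries called replicate 4 here carry the column numbers 13 (young CD34Hi), 14 (young CD34Lo) and 16 (adult CD34Lo), and adult CD34Hi has no such library. They stand apart in markers of other cells and are described with the results they touch.

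In adult cells Dpp4, Clec3b and Fbln1 were each higher in all 4 CD34Lo libraries than in all 3 CD34Hi libraries, by 4.81 to 6.94-fold in the mean. Dpt was lower in all 4 CD34Lo libraries, and the other 6 genes overlapped between the gates. Of all genes tested, 11% stood higher without overlap and 10.1% lower. Since the contrast chose the list, nothing is read from that count.

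Of the surface proteins, Dpp4, the serine protease CD26 that trims peptide hormones and chemokines, stood at 168, 128, 110 and 266 CPM in adult CD34Lo replicates 1 to 4. It stood at 22.5, 22.2 and 28 CPM in adult CD34Hi. The lowest CD34Lo library thus lay well above the highest CD34Hi library, and the fitted log2 fold change was 2.8 (SE 0.37). Dpp4 lies on chromosome 2 at 62330073 to 62412231 of GRCm38 (mm10) on the minus strand, and overlaps Gm13561 on the other strand.

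Pdgfra, the receptor that defines fibro-adipogenic progenitors, did not follow Dpp4 in the difference between the adult gates. It stood at 3.37, 3.96 and 4.84 CPM in adult CD34Lo replicates 1 to 3 and at 34.6 CPM in replicate 4. The adult CD34Hi libraries held 8.74, 9.04 and 9.18 CPM. Adult CD34Lo replicates 1 to 3 were therefore below all CD34Hi libraries and replicate 4 was above them. The fitted log2 fold change was 0.36 (SE 1.03), and -1.14 without replicate 4. Pdgfra lies on chromosome 5 at 75152292 to 75198215 on the plus strand. It overlaps Gm42802 and Gm42803 on the other strand and Mir7025.

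Pi16, a peptidase inhibitor that marks fibroblasts of the adventitia, stood at 6.07, 4.95, 5.24 and 50.3 CPM in adult CD34Lo replicates 1 to 4. In adult CD34Hi it stood at 6.52, 11.1 and 6.4 CPM. Again replicate 4 alone was above the CD34Hi libraries, and the log2 fold change of 1.03 (SE 0.89) became -0.56 without it. Ly6a encodes Sca-1, an antigen that the sort depletes. Its level was 13.3, 38.3, 24.7 and 147 CPM in adult CD34Lo against 19.8, 48.7 and 38.2 CPM in CD34Hi, so that only replicate 4 exceeded the highest CD34Hi library. The log2 fold change was 0.64 (SE 0.76) and -0.48 without replicate 4. Ly6a belongs to a family of similar genes, and how reads shared within it were counted is not given in the sources used here. Pi16 lies on chromosome 17 at 29317680 to 29330593 and Ly6a on chromosome 15 at 74994877 to 74998031.

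The bases before the start sites of Dpp4 and Fbln1, which stood above CD34Hi in all 4 adult CD34Lo libraries, and of Pdgfra, which did so in replicate 4 alone, are shown to set the 2 patterns side by side. Each is the 250 bases before the start of the RefSeq gene on GRCm38.p6, 5′ to 3′ on the gene's own strand, at chr2:62412232-62412481 (minus), chr15:85205699-85205948 (plus) and chr5:75152001-75152250 (plus). RefSeq promoter entries were at hand for 6 of the 10 genes. Capitals mark a match to a motif searched.
Dpp4: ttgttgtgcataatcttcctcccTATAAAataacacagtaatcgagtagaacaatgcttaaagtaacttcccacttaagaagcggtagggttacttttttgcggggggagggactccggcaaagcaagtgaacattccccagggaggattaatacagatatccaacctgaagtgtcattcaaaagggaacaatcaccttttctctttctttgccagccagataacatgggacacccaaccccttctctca
Fbln1: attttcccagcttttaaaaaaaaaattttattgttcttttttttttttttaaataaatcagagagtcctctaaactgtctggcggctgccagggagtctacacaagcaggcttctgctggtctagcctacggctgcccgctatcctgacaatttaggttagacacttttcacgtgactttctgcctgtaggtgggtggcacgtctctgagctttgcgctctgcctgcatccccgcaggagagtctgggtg
Pdgfra: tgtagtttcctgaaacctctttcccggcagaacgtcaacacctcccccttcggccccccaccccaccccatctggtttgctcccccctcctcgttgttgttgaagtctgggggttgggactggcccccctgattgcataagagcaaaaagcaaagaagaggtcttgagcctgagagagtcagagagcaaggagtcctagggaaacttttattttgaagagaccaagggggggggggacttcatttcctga
The 5 motifs were searched on both strands, and none contains another. The AP-1 motif TGACTCA occurred in 4.46% of all 32851 RefSeq promoter windows of this length. The cyclic AMP response motif TGACGTCA occurred in 1.55% of them. The TATA box, searched as TATAAA, occurred in 12.4%. The CCAAT box occurred in 33.8% and the GC box, searched as GGGCGG, in 32.7%. The only match was TATAAA in Dpp4, starting 227 bases before the start. Bases G and C made up 43.6% of the Dpp4 window, 46.4% of the Fbln1 window and 54.4% of the Pdgfra window. A match describes letters only, and the data hold no measure of binding.

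Among the secreted and matrix proteins, Clec3b, which encodes the plasminogen-binding protein tetranectin, stood at 17.5, 40.9, 28.1 and 53.2 CPM in adult CD34Lo replicates 1 to 4. In adult CD34Hi it stood at 3.75, 6.19 and 5.98 CPM, with no overlap and a log2 fold change of 2.72 (SE 0.43). Fbln1, the basement membrane and elastic fibre glycoprotein fibulin 1, stood at 37.9, 58, 55.6 and 115 CPM against 10.8, 19.7 and 11.1 CPM, a log2 fold change of 2.26 (SE 0.4). The order of the replicates differed among the 3 genes: of replicates 1 to 3, Dpp4 was highest and Clec3b and Fbln1 were lowest in replicate 1. Clec3b lies on chromosome 9 at 123150946 to 123157432 and Fbln1 on chromosome 15 at 85205949 to 85286535, both on the plus strand.

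The microfibril genes were less clearly parted. Mfap4, which encodes an elastic fibre glycoprotein, stood at 7.59, 13.2, 18.8 and 23.5 CPM in adult CD34Lo and 7.77, 9.83 and 6.19 CPM in CD34Hi. Mfap5, a fibrillin-binding microfibril protein, stood at 16.5, 39.3, 30 and 76.1 CPM against 12.6, 26.2 and 14.5 CPM. In each gene adult CD34Lo replicate 1 lay within the CD34Hi range, and the log2 fold changes were 0.98 (SE 0.42) and 1.18 (SE 0.7). Mfap4 lies on chromosome 11 at 61485431 to 61488900, where it overlaps Mapk7 on the other strand, and Mfap5 on chromosome 6 at 122505845 to 122529290.

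Dpt, which encodes dermatopontin, a small protein that binds collagen fibrils and decorin, ran the other way. It stood at 256, 305, 265 and 255 CPM in adult CD34Lo and at 435, 443 and 389 CPM in CD34Hi, without overlap and with a log2 fold change of -0.64 (SE 0.2). Gsn, which encodes the actin-severing protein gelsolin, is the only member that acts on the cytoskeleton. It stood at 1550, 1310, 1480 and 2520 CPM in adult CD34Lo and at 1950, 1820 and 1640 CPM in CD34Hi. Replicates 1 to 3 were below the CD34Hi libraries and replicate 4 above them. Dpt lies on chromosome 1 at 164796644 to 164824266, overlapping Gm32569 on the other strand, and Gsn on chromosome 2 at 35256380 to 35307892, overlapping Gm43128.

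Per kilobase of exon, the members differed by orders of magnitude in adult CD34Lo cells. Gsn averaged 543 and Dpt 157 CPM per kb. Ly6a (46.3), Clec3b (35.2) and Dpp4 (26.6 CPM per kb) came next, followed by Fbln1 (15.3), Mfap5 (11.3) and Mfap4 (8.21). Pi16 averaged 2.62 and Pdgfra 1.17 CPM per kb, the lowest level of the list even with replicate 4 included. In adult CD34Hi cells Dpp4 averaged 3.83 and Pdgfra 0.897 CPM per kb.

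**Figure D1:**
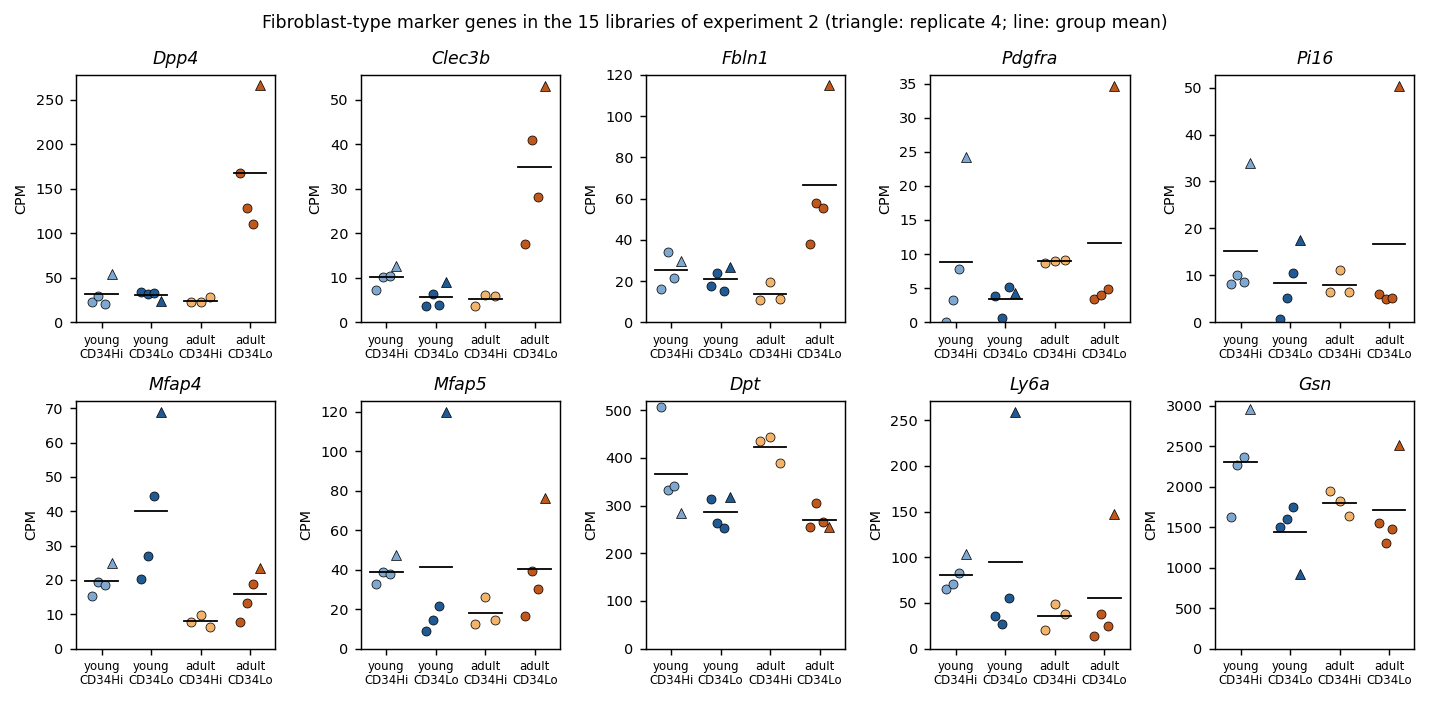
CPM of the 10 genes in each library of experiment 2, by group, with the group mean as a line and replicate 4 as a triangle. Dpp4, Clec3b and Fbln1 are high in all 4 adult CD34Lo libraries, while Pdgfra at 34.6 and Pi16 at 50.3 CPM are high in adult CD34Lo replicate 4 alone of its group.

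Set against the mean of the adult CD34Hi libraries, adult CD34Lo replicates 1, 2 and 3 held 6.95, 5.3 and 4.52 times as much Dpp4, and 0.375, 0.441 and 0.538 times as much Pdgfra. Replicate 4 held 11 times as much Dpp4 and 3.85 times as much Pdgfra. For Pi16 the values were 0.758, 0.618 and 0.654 in replicates 1 to 3 and 6.28 in replicate 4, and for Ly6a 0.374, 1.08, 0.695 and 4.13. Replicate 4 was the highest library of its group for 9 of the 10 genes, all but Dpt. It exceeded the mean of replicates 1 to 3 by 8.53-fold for Pdgfra, 9.28-fold for Pi16 and 5.77-fold for Ly6a, but by 1.96-fold for Dpp4, 1.84-fold for Clec3b and 2.28-fold for Fbln1. Over replicates 1 to 3 Dpp4 averaged 135 ± 30.1 CPM (SD, n = 3), Clec3b 28.9 ± 11.7 and Fbln1 50.5 ± 11, or 5.59, 5.44 and 3.64 times the CD34Hi means. These 3 genes were singled out because all 4 libraries lay above CD34Hi. Their separation in replicates 1 to 3 follows from that and adds no support. Without replicate 4 Pdgfra and Pi16 lay below all CD34Hi libraries, and Ly6a overlapped them.

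**Figure D2:**
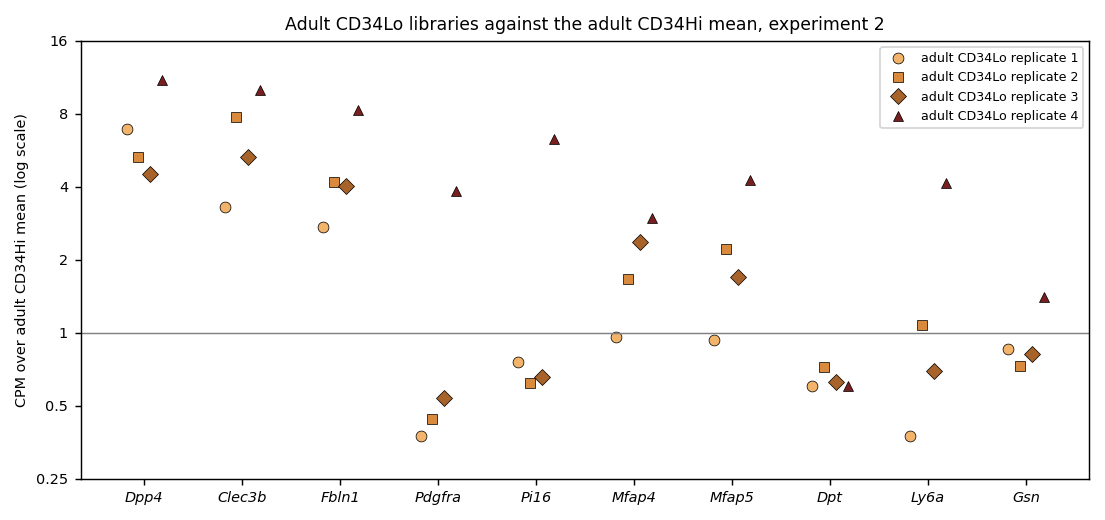
CPM of each adult CD34Lo library divided by the mean of the 3 adult CD34Hi libraries, for the 10 genes, on a log scale. Dpp4, Clec3b and Fbln1 lie above 1 in all 4 libraries, Dpt lies below 1 in all 4, and Pdgfra and Pi16 lie below 1 in replicates 1 to 3 and at 3.85 and 6.28 in replicate 4.

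The ratio of Dpp4 to Pdgfra, both in CPM of the same library, ran from 7.69 to 50 among the adult CD34Lo libraries (50, 32.4, 22.6 and 7.69 in replicates 1 to 4). It was 2.57, 2.46 and 3.05 in adult CD34Hi. In young CD34Lo it was 8.71, 49.2, 6.51 and 5.67, and in young CD34Hi replicates 2 to 4 it was 9.21, 2.69 and 2.24. Young CD34Hi replicate 1 had no Pdgfra count, where 3 counts would equal 0.379 CPM. The ratio of Clec3b to Dpp4 varied less within adult CD34Lo, from 0.104 to 0.319, and that of Fbln1 to Dpp4 from 0.225 to 0.508. These are ratios within a library and carry the length of each gene, so only their change between libraries is read. They show that Dpp4 and Pdgfra did not keep 1 proportion.

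Across the 15 libraries of experiment 2, the deviations of log2(CPM + 1) from the group means were compared for the 45 pairs of members. Pearson's r had a median of 0.518 and ran from -0.694 to 0.928, and 37 pairs were above 0. These r are descriptions over libraries that share a scaling and in which 3 libraries have large deviations. The median r and the share above 0 over pairs of all genes are not given here. The values are therefore not read as particular to the members. Without replicate 4 of young CD34Hi, young CD34Lo and adult CD34Lo the median over 12 libraries was 0.128, from -0.811 to 0.83, with 28 pairs above 0. The closest pair was Mfap5 and Ly6a when all libraries were counted.

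Of the 3 genes that were high in every adult CD34Lo library, Clec3b and Fbln1 tracked each other once the group means were removed, and Dpp4 followed them less closely. Among Dpp4, Clec3b and Fbln1, r was 0.221 for Dpp4 with Clec3b, 0.392 for Dpp4 with Fbln1 and 0.822 for Clec3b with Fbln1. Without the 3 libraries Dpp4 had -0.295 with Clec3b and -0.104 with Fbln1, while Clec3b and Fbln1 kept 0.701. Among Pdgfra, Pi16, Ly6a and Mfap5, a set put together after the values were seen, the median r was 0.696 with all libraries and 0.322 without the 3. Between the 2 sets it was 0.641 and 0.141. Dpt had a median r of -0.273 with the other members in either case.

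**Figure D3:**
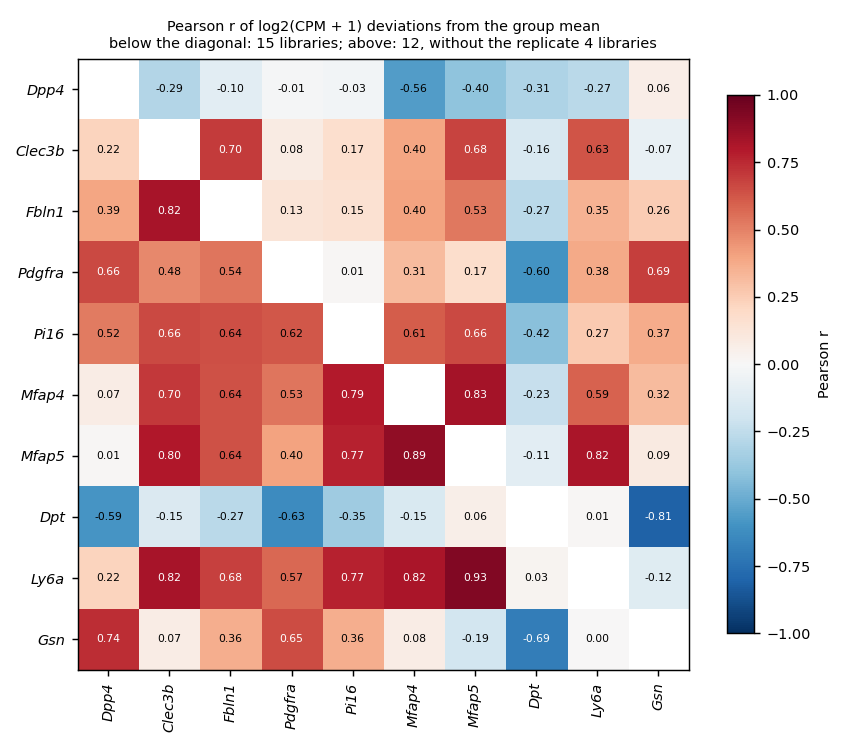
Pearson's r between members in experiment 2, from deviations of log2(CPM + 1) from the group means. Below the diagonal are the 15 libraries (median 0.518), above it the 12 without the replicate 4 libraries (median 0.128), where Dpp4 has -0.295 with Clec3b and Clec3b 0.701 with Fbln1.

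The summed level of the 10 genes did not part the gates, since Gsn and Dpt make up most of it. It ran from 1950 to 3540 CPM in adult CD34Lo and from 2150 to 2470 CPM in adult CD34Hi, a ratio of means of 1.02.

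The replicate 4 libraries of experiment 2 differed from the rest of their groups in markers of other cells too. In adult CD34Lo the summed level of 12 endothelial genes was 276, 398 and 357 CPM in replicates 1 to 3 and 1070 CPM in replicate 4, against 340 to 460 CPM in adult CD34Hi. That of 13 leukocyte genes was 32.9, 68 and 76.5 CPM and then 449 CPM, against 41.2 to 66.8 CPM. Pecam1 stood at 11, 32.7, 27.3 and 74.3 CPM, and Ptprc at 0.169, 0, 0 and 5.32 CPM. The 48 other fibro-adipogenic and fibroblast genes summed to 12500, 13800, 13700 and 21100 CPM, against 8220 to 8480 CPM in adult CD34Hi. Genes with high levels weigh most in this sum. Mean levels in adult CD34Lo and CD34Hi were 3300 and 855 CPM for Dcn, and 2860 and 321 CPM for C3. They were 949 and 101 CPM for Efemp1, and 788 and 166 CPM for Igfbp6. The 15 satellite cell genes summed to 13500, 10400, 11500 and 8900 CPM, against 15300 to 16300 CPM.

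So replicate 4 had the highest endothelial, leukocyte and fibroblast sums and the lowest satellite cell sum of its group. In replicates 1 to 3 the endothelial and leukocyte sums were near those of CD34Hi and the fibroblast sum was not. The 20 immediate early and dissociation stress genes summed to 14000 to 14900 CPM in all 4 adult CD34Lo libraries and 7720 to 11000 CPM in CD34Hi. The 12 tendon genes summed to 625 to 898 and 290 to 385 CPM, the 9 Schwann cell genes to 82.9 to 170 and 51.2 to 75.3 CPM, and the 10 pericyte genes to 346 to 471 and 327 to 354 CPM. No gene of these lists was at 0 in a whole group of experiment 2. In bulk RNA, a larger share of a cell type and more RNA per cell cannot be told apart, and the part of other cells in the members' levels was not tested.

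**Figure D4:**
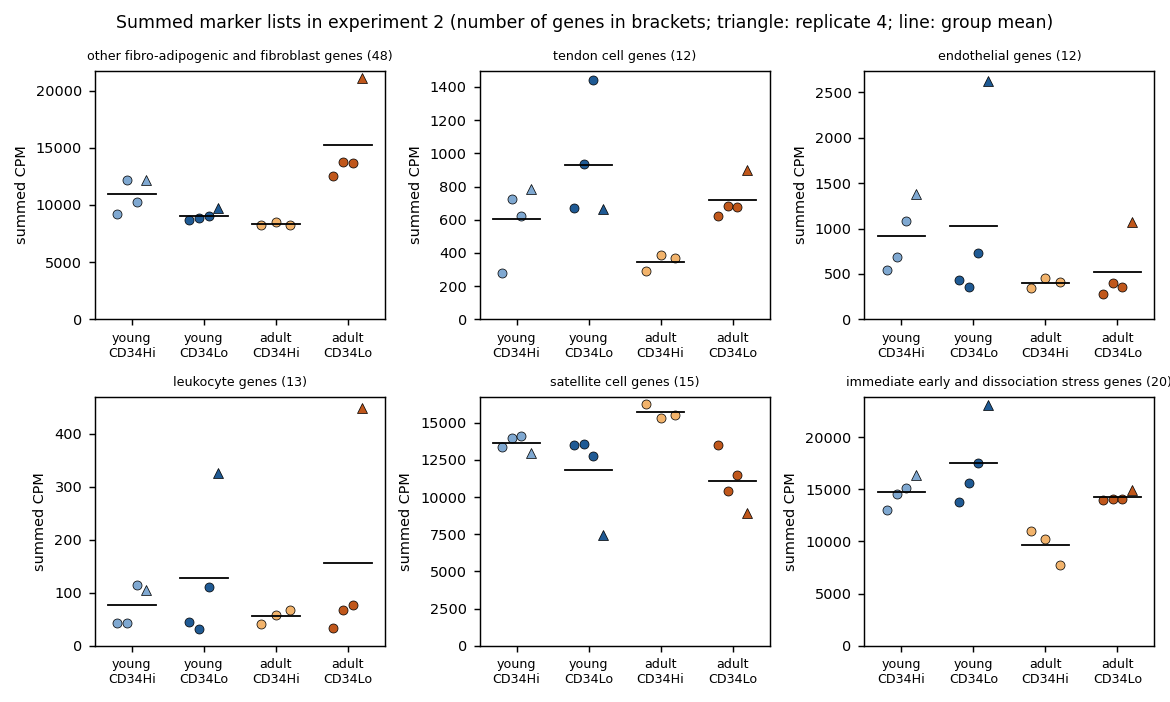
Summed CPM of 6 marker lists in the libraries of experiment 2, with group means as lines and replicate 4 as triangles. Adult CD34Lo replicate 4 reaches 1070 CPM of endothelial and 449 CPM of leukocyte genes, while all 4 adult CD34Lo libraries exceed the adult CD34Hi libraries for the other fibroblast genes.

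The young groups of experiment 2 had replicate 4 libraries of their own kind. In young CD34Hi, Pdgfra stood at 0, 3.24, 7.77 and 24.2 CPM, Pi16 at 8.21, 10.1, 8.68 and 34 CPM and Dpp4 at 22.6, 29.8, 20.9 and 54.2 CPM in replicates 1 to 4. Replicate 4 was the highest for 8 of the 10 genes, and Pecam1 reached 161 CPM there. In young CD34Lo, replicate 4 was highest for 7 of the 10 genes but not for Dpp4 or Pdgfra. Ly6a stood at 35.1, 27.4, 55.5 and 259 CPM and Mfap5 at 8.77, 14.3, 21.8 and 120 CPM, while Dpp4 was at 34.2, 31.3, 33.2 and 24.1 CPM and Pdgfra at 3.92, 0.637, 5.1 and 4.25 CPM. Endothelial genes summed to 2620 CPM in that library and to 355 to 725 CPM in the other 3. Leukocyte genes summed to 327 CPM there, against 30.7 to 111 CPM, and satellite cell genes to 7440 CPM, against 12800 to 13600 CPM. The other fibroblast genes summed to 9700 CPM, against 8680 to 9050 CPM. The part of other cells in its Ly6a and Mfap5 levels was not tested. The 3 replicate 4 libraries were thus not high in the same members: Dpp4 and Pdgfra were highest of their group in 2 of them, and Dpp4 was lowest of its group in the third.

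By the rule of highest r among 8535 genes averaging at least 8 CPM, the genes most like Dpp4 over the 15 libraries were Dock9 (0.896), Slc39a8 (0.849), Gbp6 (0.847), Crlf3 (0.833) and Fgl2 (0.83). Among those most like Pdgfra were Limch1 (0.935), Chd1l (0.924), Ceacam1 (0.904) and Adgrd1 (0.885). No member of the list was among the 5 nearest genes of either. Seen from Dpp4, Gsn was the nearest member with r = 0.736, at rank 33, and Pdgfra came at rank 125 with r = 0.658. Of all genes, 99.6% had a lower r with Dpp4 than Gsn had, and 98.5% a lower r than Pdgfra had. Without the 3 replicate 4 libraries these r were 0.0626 for Gsn and -0.0145 for Pdgfra. The ranks and the nearest genes were taken with all 15 libraries only. Fbln1 came at rank 1005 and Clec3b at rank 2382, so that 88.2% and 72.1% of genes had a lower r with Dpp4 than they did. The share was 95.3% for Pi16, 72% for Ly6a, 56.5% for Mfap4, 50.6% for Mfap5 and 3.55% for Dpt.

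Of the 48 other fibro-adipogenic and fibroblast genes, 47 could be tested in the adult contrast. This list too was put together with results of these libraries known, so its counts are a description. By edgeR, 11 stood higher in CD34Lo at an adjusted p under 0.05 and none lower, and 2.54% of all genes were called higher. The median log2 fold change of the list was 0.62, and 0.04 over all genes. The widest differences were in Efemp1, the matrix protein fibulin 3 (949 against 101 CPM, log2 fold change 3.23, SE 0.38), and in the complement genes C3 (2860 ± 651 against 321 ± 108 CPM) and C4b (315 ± 96.8 against 47.9 ± 7.91 CPM). Of the tendon genes, Fmod, a collagen-binding proteoglycan, stood at 451 ± 153 against 64 ± 41.3 CPM (SD, n = 4 and 3). Adult against young CD34Lo, which shares the adult CD34Lo libraries, had Dpp4 at 168 ± 69.7 against 30.7 ± 4.57 CPM, Clec3b at 34.9 ± 15.5 against 5.72 ± 2.55 CPM and Fbln1 at 66.6 ± 33.5 against 20.9 ± 5.37 CPM (SD, n = 4 each), each without overlap. The share of all genes higher without overlap there was 4.53%, and again nothing is read from the count. Mfap4 was lower in the adult cells, at 15.8 ± 6.89 against 40.2 ± 21.7 CPM, with overlap.

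Adult against young CD34Hi went another way, again with no test. Clec3b (5.3 ± 1.35 against 10.1 ± 2.15 CPM), Mfap4 (7.93 ± 1.83 against 19.6 ± 3.95 CPM), Mfap5 (17.8 ± 7.33 against 39 ± 6.14 CPM) and Ly6a (35.6 ± 14.6 against 80.7 ± 17.4 CPM) were each lower in all 3 adult libraries than in all 4 young ones. Of all genes, 8.07% were lower without overlap. Dpp4 stood at 24.2 ± 3.25 and 31.9 ± 15.4 CPM with overlap.

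In young cells of experiment 2 the gates were tested, and none of the 10 genes was called. edgeR called 0.233% of all genes. Dpp4 averaged 30.7 CPM in CD34Lo and 31.9 CPM in CD34Hi, with a log2 fold change of -0.05 (SE 0.31, adjusted p = 0.984 by edgeR). Clec3b (5.72 against 10.1 CPM, log2 fold change -0.83, SE 0.37) and Gsn (1440 against 2310 CPM, -0.68, SE 0.24) were lower and Mfap4 (40.2 against 19.6 CPM, 1.04, SE 0.37) higher at an unadjusted p under 0.05, with adjusted p of 0.665, 0.486 and 0.523. Of all 12857 genes tested, 917 had an unadjusted p under 0.05. All 10 genes overlapped between the gates.

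Dpp4 set experiment 2 apart from the other tables. It ran from 20.9 to 266 CPM there and from 0 to 6.61 CPM in the 65 libraries of the other tables, so that none of them reached the lowest library of experiment 2. The tables were normalised separately and the labels name a pair of RNA kits without assigning them, so levels are set side by side with no test. The share of all genes that part experiment 2 in this way is not given here. The separation is therefore not read as particular to Dpp4. No other member was parted in this way: of the 65 libraries, 25 exceeded the lowest experiment 2 value for Clec3b, 22 for Fbln1, 50 for Pdgfra, 37 for Pi16, 30 for Mfap4, 18 for Mfap5 and 18 for Ly6a. Dpt ran from 92 to 1390 CPM and Gsn from 144 to 3150 CPM in the other tables, and both had counts in all 80 libraries. Pdgfra had no count in 16 of the 80 libraries, Clec3b in 14, Pi16 in 13, Ly6a in 12 and Dpp4 in 11. A library with no count allows up to 3 counts, which is 0.0379 to 0.791 CPM depending on depth, and these limits cover counting error only.

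The order of the 24 groups differed by gene. Adult CD34Lo had the highest mean of all groups for Dpp4, Clec3b, Fbln1, Pdgfra and Pi16. For Pdgfra and Pi16 this rests on replicate 4: over replicates 1 to 3 the means were 4.06 and 5.42 CPM, below those of adult CD34Hi (8.99 and 8.01 CPM). For Dpp4 the next groups were young CD34Hi (31.9 ± 15.4 CPM), young CD34Lo (30.7 ± 4.57) and adult CD34Hi (24.2 ± 3.25) of experiment 2, which overlapped each other, and then old KO cells of experiment 9 (2.52 ± 0.964 CPM, n = 2). For Pdgfra the next were old KO cells of 22 months (9.21 ± 2.62 CPM), adult CD34Hi (8.99 ± 0.225) and young CD34Hi (8.79 ± 10.7), whose ranges overlapped that of adult CD34Lo. For Fbln1 the KO libraries at 8 days came second, at 48 ± 2.43 CPM (n = 6). Dpt was highest in CD34Hi cells of Pax7-ROSAYFP mice (704 ± 469 CPM, n = 4) and stood at 270 ± 23.8 CPM in adult CD34Lo. Ly6a was highest in young CD34Lo of experiment 2 (94.2 ± 110 CPM) and Gsn in young CD34Hi of experiment 2 (2310 ± 545 CPM).

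**Figure D5:**
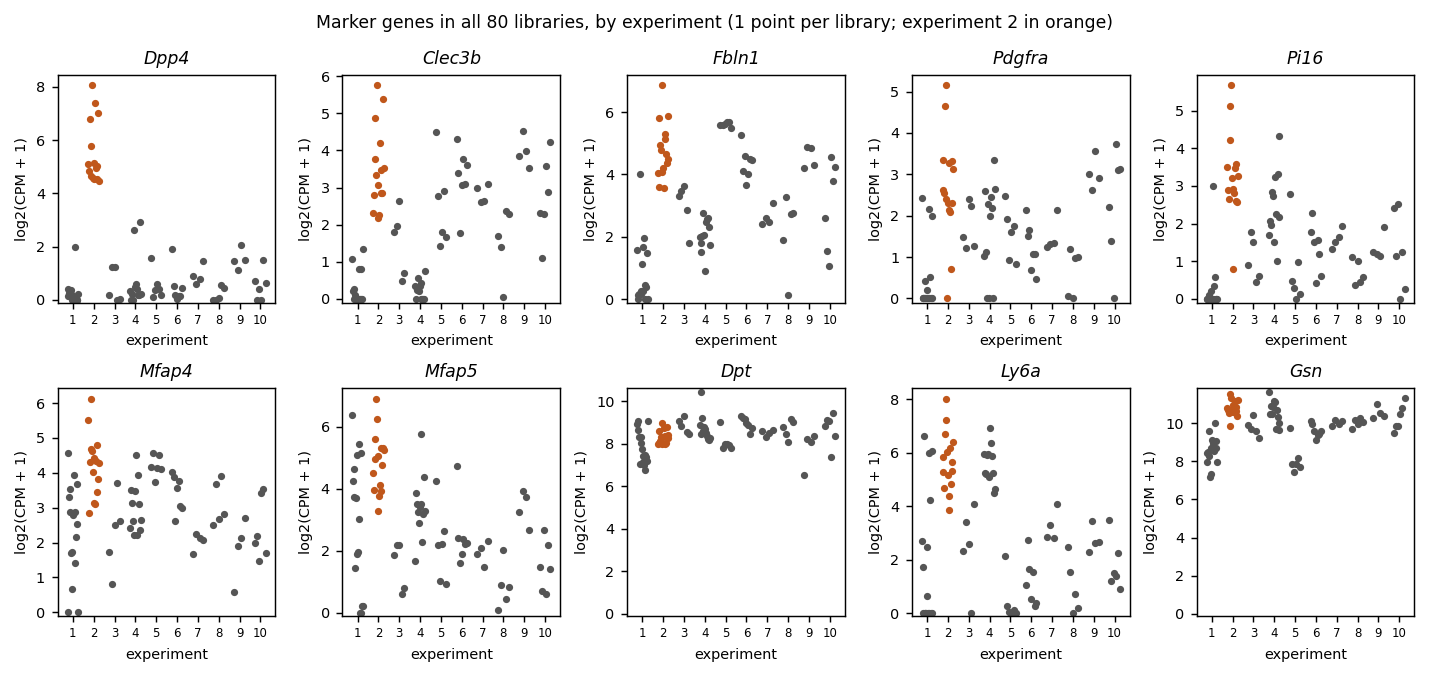
log2(CPM + 1) of the 10 genes in each of the 80 libraries, by experiment, with experiment 2 in orange. Dpp4 in experiment 2 (20.9 to 266 CPM) lies above all other libraries (0 to 6.61 CPM), while Dpt and Gsn are high in all experiments.

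Among the KO libraries at 8 days, whose WT columns were not used, most members were highest in the same library. Replicate 1 was the highest of the 6 for 8 of the 10 genes. Gsn stood at 843 CPM there and at 175 to 291 CPM in the others, Dpt at 516 and 224 to 255 CPM, and Clec3b at 21.7 and 1.66 to 6.52 CPM. Fbln1 did not take part, at 43.9 to 50.6 CPM in all 6. The endothelial genes summed to 220 CPM in replicate 1 and to 45.1 to 67.4 CPM in the other 5, and the other fibroblast genes to 22600 and to 11500 to 16900 CPM. Replicate 1 also had the highest sums of the leukocyte (22.7), pericyte (3450) and Schwann cell genes (2370 CPM), and of the satellite cell genes (6060 CPM, against 3500 to 5170 CPM in the other 5). Their part in the members' levels was not tested. The median r over the 28 pairs of the 8 genes averaging at least 1 CPM was 0.731 with replicate 1 included. No value without replicate 1 was computed. The median was 0.109 in experiment 1, -0.0518 in experiment 4, 0.349 at 21 days and 0.0832 at 22 months. Each was taken over the members that averaged at least 1 CPM in that table.

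The gate comparisons of the other tables asked whether the difference seen in adult cells recurred. In experiment 1 only 6 of the 10 genes passed the filter on low counts, without Dpp4, Clec3b, Pdgfra and Pi16, and none was called. edgeR called 0.0247% of all genes in young and 0.00822% in geriatric cells. Fbln1 stood at 4.3 ± 7.19 CPM in geriatric CD34Lo and 0.0787 ± 0.0969 CPM in CD34Hi (adjusted p = 0.302 by edgeR and 0.0308 by DESeq2), with overlap. Ly6a was present in some libraries and absent from others of the same group: 65.2, 0, 97.2 and 0 CPM in geriatric CD34Hi, and 0.567, 63.1, 18 and 0 CPM in young CD34Lo. Mfap5 had counts in all geriatric libraries, from 0.156 to 18.3 CPM in CD34Hi and from 1.72 to 82.4 CPM in CD34Lo.

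In the deeply sequenced young cells of experiment 3, Clec3b stood at 0.404 and 0.625 CPM in the 2 CD34Lo libraries and at 2.51, 2.93 and 5.23 CPM in CD34Hi. Mfap5 stood at 0.53 and 0.751 CPM against 2.64, 3.54 and 3.51 CPM. Of the 10 genes, 7 were lower in CD34Lo without overlap (Dpp4, Clec3b, Fbln1, Pi16, Mfap5, Dpt and Gsn) and Mfap4 was higher, against 13.2% of all genes lower and 13% higher. None was called by edgeR, which called 0.23% of all genes, and the adjusted p was 0.256 for Clec3b (log2 fold change -2.77, SE 0.76) and 0.346 for Mfap5 (-2.32, SE 0.73). DESeq2 gave 0.0133 and 0.0455 for these genes. Without overlap, the dissociation stress genes summed to 4790 to 7200 CPM in CD34Lo and 8040 to 12600 CPM in CD34Hi, the Schwann cell genes to 89.4 to 90.9 and 22.7 to 54.5 CPM, and the tendon genes to 212 to 424 and 138 to 147 CPM. Their part in the members' values was not tested. Dpp4 was close to absent in both gates, at 0 and 0.0278 CPM in CD34Lo and 0.127, 1.33 and 1.36 CPM in CD34Hi. Of 47 other fibroblast genes tested 4 fell in CD34Lo and none rose, among them Il33, an alarmin cytokine (3.15 ± 1.21 against 29.7 ± 14.7 CPM), Igfbp6 (4.87 ± 2.96 against 42.2 ± 13 CPM) and the proteoglycan Dcn (24.1 ± 1.71 against 185 ± 40.8 CPM).

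In Pax7-ROSAYFP cells of experiment 4, with the gate the table calls negative taken as CD34Lo, 8 of the 10 genes were tested and none was called in any of the 3 gate comparisons. edgeR called 0.931% of all genes between CD34Lo and CD34Hi, 0.223% between CD34Med and CD34Hi and 0% between CD34Lo and CD34Med, where 458 genes had an unadjusted p under 0.05 and DESeq2 called 12. Dpt was lower in all 4 CD34Lo libraries than in all 4 CD34Hi libraries (305 ± 17.3 against 704 ± 469 CPM, log2 fold change -1.21, SE 0.34), with an adjusted p of 0.15 by edgeR and 0.0495 by DESeq2. Of all genes, 2.68% were lower without overlap. Dpt was also below all CD34Med libraries (403 ± 33.4 CPM, adjusted p = 1 by edgeR), where 1.42% of genes were lower without overlap. The pericyte and smooth muscle genes summed to 2160 to 4720 CPM in CD34Lo and 624 to 899 CPM in CD34Hi, and the tendon genes to 118 to 192 and 71.3 to 83.6 CPM, both without overlap. The endothelial sums (49 to 259 and 179 to 433 CPM) and leukocyte sums (30.8 to 306 and 78.3 to 261 CPM) overlapped. Their part in the Dpt values was not tested. Dpp4 was not tested. It was higher in all CD34Med than in all CD34Hi libraries (1.62 ± 2.41 against 0.107 ± 0.13 CPM). Outside replicate 1 the CD34Med values were 0.331 to 0.528 CPM. There 3 counts equal 0.394 to 0.528 CPM, so the lack of overlap rests on a few reads. Of the tested genes, which Dpp4 is not among, 0.948% were higher without overlap. Dpp4 reached 6.61 CPM in CD34Lo replicate 3 and 5.23 CPM in CD34Med replicate 1 against at most 0.528 CPM in the other 10 libraries. Of 44 other fibroblast genes Thy1, a surface glycoprotein of fibroblasts, fell in CD34Lo (3.94 ± 1.86 against 21.8 ± 9.64 CPM, adjusted p = 0.0293 by edgeR).

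Between young and geriatric cells, Dpt was the 1 member called among the 6 that could be tested. In CD34Hi cells of experiment 1 it stood at 540, 543, 323 and 258 CPM in geriatric and at 213, 141, 178 and 167 CPM in young libraries, without overlap, as 14.4% of all genes were higher. It rose with a log2 fold change of 1.25 (SE 0.33, adjusted p = 0.0126 by edgeR), in a comparison in which 13.4% of all genes rose and 10.1% fell. In CD34Lo cells it stood at 493, 406, 133 and 316 CPM in geriatric and 172, 129, 109 and 144 CPM in young libraries, with geriatric replicate 3 inside the young range. The log2 fold change was 1.28 (SE 0.33, adjusted p = 0.0196 by edgeR), where 8.02% of all genes rose. This call was lost with only the 2 groups in the fit (adjusted p = 0.0519) and without geriatric replicate 1 (0.0789) or 2 (0.0577) or young replicate 2 (0.0575), 3 (0.0704) or 4 (0.0541). The change with age did not differ detectably between the gates (difference in log2 fold change 0.03, SE 0.46, adjusted p = 1 by edgeR).

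Gsn stood lower in all 4 geriatric CD34Hi libraries than in the young ones (238 ± 68.7 against 423 ± 50.6 CPM, adjusted p = 0.11, and 0.0305 by edgeR with only the 2 groups), where 17.1% of all genes were lower without overlap. The leukocyte genes summed to 8.73 to 30 CPM in geriatric and 2.87 to 5.15 CPM in young CD34Hi, and the endothelial genes to 76.3 to 411 and 67.7 to 108 CPM. The pericyte and smooth muscle genes summed to 252 to 482 and 69.6 to 156 CPM, without overlap, and 3 of the 8 tested (Cspg4, Abcc9 and Notch3) rose by edgeR. In CD34Lo the leukocyte sums were 9.87 to 26.1 and 5.13 to 75.5 CPM and the pericyte sums 293 to 645 and 319 to 740 CPM, both with overlap. Their part in the Dpt result was not tested. Dpp4, which was not tested, averaged 0.223 ± 0.102 CPM in the geriatric CD34Hi libraries against 0.0173 ± 0.0345 CPM in the young ones, also without overlap. It reached at most 0.323 CPM in the geriatric libraries. There 3 counts equal 0.298 to 0.485 CPM, so this difference rests on a few reads. The shares of all genes given above cover tested genes, which Dpp4 is not among. Of 44 other fibroblast genes 13 rose and 2 fell in geriatric CD34Hi, among them Sfrp4, a secreted Wnt antagonist (57.4 ± 32.2 against 2.61 ± 0.553 CPM), C4b (19.5 ± 22.1 against 0.64 ± 0.433 CPM) and Il33 (197 ± 258 against 12.3 ± 12.4 CPM). In geriatric CD34Lo 5 rose and 1 fell, with Loxl1, a crosslinking enzyme of elastin, at 27.1 ± 4.55 against 6.12 ± 2.22 CPM and Pcolce2 at 35.8 ± 23.9 against 193 ± 28.7 CPM.

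In the FoxO knockout comparisons no member was called. At 21 days all 10 genes had a negative log2 fold change, with a median of -0.95 against 0 for all genes, and 7 had an unadjusted p under 0.05, as did 1909 of all 14200 genes tested. Pdgfra stood at 0.618, 1.09, 1.11 and 0.395 CPM in KO and 3.4, 1.85 and 2.17 CPM in WT, a log2 fold change of -1.59 (SE 0.48, adjusted p = 0.138 by edgeR and 0.0379 by DESeq2). Dpt (440 ± 68.8 against 600 ± 27.2 CPM) and Gsn (675 ± 89.7 against 960 ± 167 CPM) were also lower in all KO libraries, with adjusted p of 0.301 and 0.259 by edgeR. Of all genes 7.51% were lower without overlap, and edgeR called 2.04% in either direction. The endothelial genes summed to 64.4 to 96.9 CPM in KO and 134 to 209 CPM in WT, and the tendon genes, in the other direction, to 473 to 879 and 192 to 318 CPM, both without overlap. Their part was not tested. Of the tendon genes Tnc rose (495 ± 169 against 113 ± 14.6 CPM, adjusted p = 0.00126 by edgeR) and Fmod fell. Of 48 other fibroblast genes 7 fell and 1 rose, among the former Serping1, the inhibitor of complement C1 (84.1 ± 8.64 against 480 ± 127 CPM), and Cd55, an inhibitor of complement (1.54 ± 0.277 against 7.8 ± 1.99 CPM).

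In old mice of 22 months the direction was the other way for 6 of the 10 genes. Fbln1 stood at 22.4, 12.8 and 17.9 CPM in KO and 5.06, 1.93 and 1.12 CPM in WT, Clec3b at 11, 6.31 and 17.7 CPM against 3.93, 1.13 and 3.92 CPM, and Gsn at 1400, 1780 and 2570 CPM against 707, 913 and 928 CPM. These 3 genes and Pdgfra (9.21 ± 2.62 against 1.74 ± 1.8 CPM) were higher in all KO libraries, against 13.6% of all genes. The Schwann cell genes summed to 1970 to 3970 CPM in KO and 37.2 to 1280 CPM in WT, and the tendon genes to 906 to 2960 and 164 to 319 CPM, both without overlap. The pericyte sums were 616 to 1240 and 525 to 845 CPM, with overlap, and Pdgfrb of that list rose (64.6 ± 28.6 against 11.7 ± 2.97 CPM, adjusted p = 0.0274 by edgeR). Their part in the members' values was not tested. By edgeR, which called 1.05% of all genes, the adjusted p was 0.0659 for Fbln1 (log2 fold change 2.72, SE 0.58), 0.15 for Clec3b (1.96, SE 0.6) and 0.0925 for Gsn (1.17, SE 0.29). DESeq2 gave 0.000154, 0.0283 and 0.00657. Pi16 ran the opposite way to Pdgfra, at 0.525 ± 0.744 against 3.42 ± 1.94 CPM. Of 48 other fibroblast genes 3 rose, Efemp1 (35.1 ± 1.07 against 3.37 ± 2.17 CPM), Il33 (191 ± 99.8 against 23.5 ± 3.16 CPM) and the basement membrane gene Nid1 (504 ± 223 against 102 ± 40.4 CPM), and Pcolce2 fell. Of the tendon genes Tnc, a matrix glycoprotein of healing tissue, rose as well (1670 ± 1080 against 195 ± 84.7 CPM, log2 fold change 3.1, adjusted p = 0.0328 by edgeR). Foxo1 ranged from 24.4 to 46.9 CPM in these KO libraries and from 32.4 to 62.1 CPM in WT, and the ranges overlapped.

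In the other 3 knockout comparisons edgeR called 0.00723% of genes in young Pax7ROSAYFP mice, 0.103% in young mice and 0% in old mice of experiment 9, and no member. In young Pax7ROSAYFP mice 9 of the 10 log2 fold changes were positive, with a median of 0.25, and Pdgfra (2.48 ± 1.33 against 1.43 ± 0.105 CPM) and Pi16 (2.5 ± 0.506 against 1.7 ± 0.242 CPM) were higher in both KO libraries, with an adjusted p of 0.7 each by edgeR. Of all genes 20.4% were higher without overlap. In young mice Dpt stood at 548 ± 42.9 in KO and 351 ± 84.4 CPM in WT (log2 fold change 0.65, SE 0.25, adjusted p = 0.812 by edgeR). Dpt, Clec3b (4 ± 0.211 against 1.31 ± 1.14 CPM) and Dpp4 (0.412 ± 0.0923 against 0.0127 ± 0.022 CPM, not tested) were higher in both KO libraries, against 13.8% of all genes. KO and WT libraries of that table carry different number prefixes in the column headers, whose meaning is not stated, so what the prefix stands for and the genotype cannot be told apart there. Col1a1, a chain of type I collagen, rose in KO (418 ± 55.2 against 62.2 ± 22.8 CPM, adjusted p = 0.0371 by edgeR), as did Tnc (510 ± 18.4 against 97.5 ± 22.3 CPM, adjusted p = 0.0268). The other fibroblast genes summed to 8290 to 10600 CPM in KO and 4340 to 6180 CPM in WT, and the tendon genes to 611 to 718 and 151 to 222 CPM. The endothelial genes ran the other way, at 79.9 to 107 and 126 to 198 CPM. None of these sums overlapped, and their part in the members' values was not tested. In old mice of experiment 9, 1665 genes had an unadjusted p under 0.05 and none of the 10 members did. Dpp4 (2.52 ± 0.964 against 1.44 ± 0.402 CPM) and Mfap4 (4.48 ± 1.53 against 1.61 ± 1.57 CPM) were higher in both KO libraries, against 23.8% of all genes. DESeq2 called 210 genes there.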

How the data were processed

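Gene counts were taken as deposited: per the labels and the tables' whole numbers these are raw read counts per gene symbol, unscaled by the authors. The submitters' processing notes name the build mm10, HTSeq, Partek 7.0, TopHat2 2.1.1 and Trim Galore, with demultiplexing by bcl2fastq. No source used here gives the annotation, strand setting or handling of shared reads, so overlapping genes on opposite strands may share reads. Per the labels' protocols, libraries came from a low-input amplification, so counts are not separate molecules.

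The 10 members and the marker lists were chosen with earlier results of these data known. Columns were matched to samples by their names. In experiment 4 the gates in the column names were matched to the labels in order of CD34. Among the 8-day columns, 4 WT columns for 3 labelled WT samples were not used. Experiments 11 to 13 (36 samples) were left out and are not analysed here. Each table was fitted in R 4.3.3 with edgeR 4.0.16: filterByExpr (minimum count 10, total 15), TMM, quasi-likelihood test, all groups of a table in the fit, Benjamini-Hochberg adjustment over all genes tested, threshold 0.05. In all, 14 comparisons were tested, with 117 tests of members, and 3 using adult cells were described. Alternatives were DESeq2 1.42.0, its size factors, no filter, only the groups compared, leaving out each library, and a block on column numbers in experiments 4 and 7. Where an arm then held 1 library, that library is assumed to vary like the others. Joint variation used log2(CPM + 1) deviations from group means. Positions and exon lengths are those of GENCODE on GRCm38. Fits were tested on simulated data.

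Named genes were the 10 members, the genes of the sort antigens, Pax7, Myf5 and Myod1 for levels, up to 3 called genes with the largest log2 fold change of the other fibroblast list and of the tendon list per comparison (mean of at least 1 CPM), and the 5 genes most like Dpp4 and Pdgfra, of which 1 is not reported here. Endothelial, leukocyte, pericyte, Schwann cell, satellite cell and stress gene lists were summed. Since the labels name no separate animals within a group, the spread behind each p-value is that of libraries and may be technical.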

Additional observations from a re-analysis of the deposited data

Results flagged for a closer look

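Libraries that lay far from the rest of their group (highest or lowest value of log2(CPM + 1), by Dixon's ratio at the 95% level) were looked for in 12 groups of 4 to 10 libraries. Of 117 gene and group combinations with any spread 19 stood out. Chance gives about 1 in 20 in general, but not for the 5 in which 1 library had counts and the others were at 0, since the ratio is then fixed at its maximum. Values are CPM of the library, followed by the range of the others.

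In experiment 2, adult CD34Lo replicate 4 stood out for Pdgfra (34.6, others 3.37 to 4.84) and Pi16 (50.3, others 4.95 to 6.07), young CD34Hi replicate 4 for Pi16 (34, others 8.21 to 10.1), and young CD34Lo replicate 2 for a low Pdgfra (0.637, others 3.92 to 5.1).

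Among the KO libraries at 8 days, replicate 1 stood out for Dpt (516, others 224 to 255), Gsn (843, others 175 to 291), Pi16 (5.89, others 0 to 0.985), Ly6a (3.35, others 0 to 0.206) and Dpp4 (1.98, others 0.0688 to 0.525).

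In experiment 4, Dpp4 stood out in CD34Lo replicate 3 (6.61, others 0.143 to 0.168) and CD34Med replicate 1 (5.23, others 0.331 to 0.528), and Clec3b in CD34Lo replicate 4 (0.673, others 0).

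In experiment 1, geriatric CD34Hi replicate 1 stood out for Clec3b (1.56, others 0 to 0.162) and for a low Mfap5 (0.156, others 12 to 18.3). Young CD34Lo replicate 2 stood out for Dpp4 (2.98, others 0 to 0.0708) and young CD34Hi replicate 1 for Ly6a (4.53, others 0). At 1 or a few counts, so did Pi16 in geriatric CD34Lo replicate 3 (0.0689), Dpp4 in young CD34Hi replicate 3 (0.069) and Pdgfra in young CD34Hi replicate 1 (0.151), with the others at 0.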

How the results depend on the processing

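Of 348 values recomputed under alternatives, 313 were taken as unchanged. For a count of members called this meant an equal or similar count, without regard to direction or to which genes were called. For fold changes, r and summed levels it meant a shift within the spread. For a called gene it meant keeping its direction and its side of the threshold. The count of members called became 1 (Fbln1) with DESeq2 for geriatric CD34Lo against CD34Hi, 2 (Clec3b, Mfap5) in experiment 3, 1 (Dpt) for CD34Lo against CD34Hi in experiment 4, 1 (Pdgfra) at 21 days and 3 (Fbln1, Clec3b, Gsn) at 22 months. It was 1 (Fbln1) at 22 months with no filter on low counts. With only the 2 groups it was 2 (Dpt, Gsn) for geriatric against young CD34Hi and 0 for CD34Lo.

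Leaving out each library, the count ran from 0 to 2 for geriatric against young CD34Lo, from 0 to 1 in experiment 3 (Ly6a without CD34Lo replicate 2), at 21 days (Ly6a without KO replicate 2) and at 22 months (Fbln1 without WT replicate 1), and from 0 to 3 in old mice of experiment 9. There, Clec3b, Ly6a and Gsn were called lower without WT replicate 1, and Mfap4 and Dpt higher without WT replicate 2. The 2 WT libraries of experiment 9 differ, and each omission leaves 1.

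The median log2 fold change of members, adult CD34Lo against CD34Hi, ran from 0.19 to 1.26 around 1.01, and was 0.19 without the 3 replicate 4 libraries, an alternative chosen after seeing the data. For adult against young CD34Lo it ran from -0.03 (without adult replicate 4, a change of direction) to 1.5 (without young replicate 4) around 0.61, and for CD34Hi from -1.13 to -0.49 around -0.89. The causes were not tested. The median r ran from 0.282 to 0.61 over single omissions, and the ratio of summed levels from 0.858 to 1.25.

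With a replicate block on the column numbers, 0 members were called in the 3 comparisons of experiment 4 and in experiment 7, as without it. Same-numbered libraries correlated at -0.0496 to 0.53 in experiment 4, and differently numbered ones of different gates at -0.324 to 0.266. Same-numbered libraries there thus tended to be more alike. The labels do not state that the numbers are pairs. The main fit did not take them as pairs, so it leaves out any such pairing. In experiment 7 the r was -0.0589, but with 2 libraries per group it cannot show whether the numbers are pairs. The block moved the count of all genes called from 113 to 215 for CD34Lo against CD34Hi and from 1 to 3 in experiment 7. DESeq2 on all genes called 280 in place of 1 for geriatric CD34Lo against CD34Hi and 258 in place of 32 in experiment 3. Depth limits the low members: 3 counts equal 0.34 to 0.665 CPM in experiment 2.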
